A study of Mus musculus with 12 samples.

Results

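Conjugating enzymes of the glutathione transferase (Gst), UDP-glucuronosyltransferase (Ugt) and cytosolic sulfotransferase (Sult) families were followed in mouse liver. Genes were taken by symbol, that is Gst of the alpha, mu, pi, theta, kappa and omega classes, Ugt1a, Ugt2a, Ugt2b and Ugt3a genes, and numbered Sult genes, when they had 10 or more reads in at least 3 of the 12 samples. Of 58 such symbols, 41 met this minimum (18 Gst, 16 Ugt and 7 Sult), out of 38926 gene symbols in the count files. All 41 also passed the filter on low counts and were among the 14488 genes tested. The 17 others did not reach 10 reads in any sample. Ugt1a2 came nearest with at most 9 reads, and Sult2a1, Sult2a2, Sult2a3, Sult2a4, Sult2a5, Sult2a6, Sult3a1 and Sult1c1 had between 0 and 2 reads per liver.

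Livers came from wild-type (WT) mice and from Rev-erbα−/− mice (Rev KO in the plots), which lack a functional Nr1d1 gene for the circadian repressor REV-ERBα and were bred from heterozygous pairs. Both genotypes had the labelled strain background 129Ola/C57BL6, an age of 12 weeks, a 12 h light and 12 h dark cycle and free access to food, and the animals were male. Each genotype was sampled at zeitgeber time (ZT) 8, in the light phase, and at ZT20, in the dark phase, with 3 livers per group and 1 liver per library. The knockout is a whole-body one, and a liver holds several cell types, so that fewer cells of a type and less RNA per cell cannot be told apart.

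Conjugation is the second phase of the removal of drugs, steroids, bilirubin and reactive lipids. Gst enzymes join the tripeptide glutathione to electrophiles, Ugt enzymes of the endoplasmic reticulum transfer glucuronic acid from UDP-glucuronic acid, and Sult enzymes transfer sulfate from the donor PAPS. Hepatocytes are a main site of all of these reactions, and many of the genes are induced by nuclear receptors, by the aryl hydrocarbon receptor or by NRF2.

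Between 17641809 and 26060192 reads per library were counted on genes, and 3 counts corresponded to 0.117 to 0.167 CPM (read counts scaled to a common library size). The 41 genes together took 0.65% to 0.933% of the counted reads. Nr1d1 reads did not separate the genotypes, since at ZT8 the level was 128.7, 96.2 and 75.3 CPM in WT and 63.0, 71.9 and 80.6 CPM in Rev-erbα−/− livers (edgeR quasi-likelihood test, adjusted p = 0.143). With counts per symbol the exons behind these reads cannot be seen. The authors reported by qRT-PCR that Rev-erbα mRNA was absent in knockout livers, and by immunostaining that the protein was absent at ZT8 and ZT20. WT livers 2 and 3 at ZT8 stood apart from the other 10 libraries by acute phase transcripts. Saa1, an acute phase apolipoprotein, stood at 60.8, 4972 and 6489 CPM in the 3 WT livers at ZT8 and between 21.2 and 96.8 CPM in the other groups. The summed level of 14 acute phase genes was 9579 to 34840 CPM in the WT and 8939 to 10370 CPM in the Rev-erbα−/− livers of ZT8, and 9 of these 14 genes were lower in Rev-erbα−/− livers at that time. A fit without both libraries was therefore also made, which leaves 1 WT liver at ZT8, assumed to vary like the other groups. For the mu class as a group and for the supporting and marker lists, this fit was added after the data were seen. The part of the acute phase state in the results was not tested.

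Many of these genes are close copies of each other, and the counts hold only reads that mapped to a single place. Each coding stretch given here was the 75-base window in which the least different copy differed most from the reference gene. Gstm3, for example, differed from Gstm1 at 16 bases of its stretch and at 69 of all 654 coding bases. For 5 mu-class genes the stretch was the last 75 coding bases, with capitals for each base that differs from Gstm1 (GENCODE M21, coding positions 580 to 654).
Gstm1: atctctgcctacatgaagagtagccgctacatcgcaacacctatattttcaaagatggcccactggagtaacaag
Gstm2: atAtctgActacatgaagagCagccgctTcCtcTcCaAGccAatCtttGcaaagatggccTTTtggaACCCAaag
Gstm3: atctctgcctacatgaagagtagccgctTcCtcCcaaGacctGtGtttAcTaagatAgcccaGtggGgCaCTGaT
Gstm4: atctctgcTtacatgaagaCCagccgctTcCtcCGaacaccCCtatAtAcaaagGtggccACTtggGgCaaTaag
Gstm7: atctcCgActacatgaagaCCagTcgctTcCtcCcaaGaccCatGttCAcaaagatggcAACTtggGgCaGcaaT
Over the 654 coding bases, Gstm3 was 89.4%, Gstm2 85.9%, Gstm7 82.6% and Gstm4 80.1% identical to Gstm1. Windows of 75 bases, the read length, that occurred in no other annotated gene made up 88.3% of Gstm1, 98.2% of Gstm2, 78.4% of Gstm3 and at least 97.4% of Gstm4, Gstm6 and Gstm7. The first 75 coding bases of the pi-class pair and a stretch of 3 Ugt2b genes (coding positions 1361 to 1435), with capitals for bases that differ from Gstp1 and from Ugt2b5, are given because single livers differed in Gstp2 and Ugt2b38, each of which has a close and far more abundant copy.
Gstp1: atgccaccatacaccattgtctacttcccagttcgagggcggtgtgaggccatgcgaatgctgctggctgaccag
Gstp2: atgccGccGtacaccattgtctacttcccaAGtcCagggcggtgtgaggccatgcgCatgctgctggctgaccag
Ugt2b5: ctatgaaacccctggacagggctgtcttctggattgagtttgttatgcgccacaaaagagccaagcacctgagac
Ugt2b37: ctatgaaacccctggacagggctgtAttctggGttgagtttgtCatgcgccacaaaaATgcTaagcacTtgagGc
Ugt2b38: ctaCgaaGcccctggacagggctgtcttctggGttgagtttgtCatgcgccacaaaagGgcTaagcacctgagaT
Unique windows made up 70.8% of Gstp1, 49.9% of Gstp2, 69.6% of Ugt2b5 and 72% of Ugt2b38. The lowest shares belonged to Gsta1 (15.3%) and to the Ugt1a genes (21.2% to 48.8%), which splice different first exons onto common last exons, so that a Ugt1a count reports its own first exon. Counts of all of these genes are uncertain to that extent.

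The first question was how the absence of REV-ERBα changed conjugating enzymes in the light phase. At ZT8, 9 of the 41 genes were higher and 1 was lower in Rev-erbα−/− livers at an adjusted p-value below 0.05, which is 24.4% against 8.45% of all genes tested (4.4% higher and 4.04% lower). The 9 were Gstm1, Gstm2, Gstm3, Gstm6, Gstm7, Ugt1a10, Ugt2a3, Ugt2b1 and Ugt3a2, and the lower one was Sult1a1. The median log2 fold change was 0.21 over the 41 genes and 0.0018 over all genes, and 29 of the 41 were positive. WT and Rev-erbα−/− livers did not overlap in 18 of the 41 genes (13 higher and 5 lower), against 25.6% of all genes (13.2% higher and 12.3% lower). Without WT livers 2 and 3, 3 genes passed the threshold (Gstm2, Sult5a1 and Ugt2b37), 1 of them among the 10, against 2.29% of all genes, and all 10 kept their sign. The count also fell when single libraries were left out, to 3 without WT ZT8 replicate 2, 6 without WT ZT8 replicate 3, 4 and 5 without Rev-erbα−/− ZT8 replicates 2 and 3, 5 and 6 without WT ZT20 replicates 2 and 3, and 6 without Rev-erbα−/− ZT20 replicate 2.

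In the dark phase, fewer genes passed. At ZT20, 3 of the 41 genes were higher (Gstm2, Sult5a1 and Ugt2b35) and 2 were lower (Sult1a1 and Ugt1a9) in Rev-erbα−/− livers, which is 12.2% against 3.63% of all genes tested (2.09% higher and 1.54% lower). The median log2 fold change was 0.07 over the 41 genes, and the genotypes did not overlap in 17 of them (13 higher and 4 lower), against 22.5% of all genes (11.2% higher and 11.3% lower). The count was 3 without WT ZT20 replicate 2 or without Rev-erbα−/− ZT20 replicate 1, 10 without WT ZT8 replicate 1 and 9 without WT ZT8 replicate 3. Gstm2 and Sult1a1 passed at both times with the same sign. The mean of both genotype effects passed for 13 genes, 11 higher and 2 lower, which is 31.7% against 6.34% of all genes (3.33% higher and 3.02% lower).

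**Figure D1:**
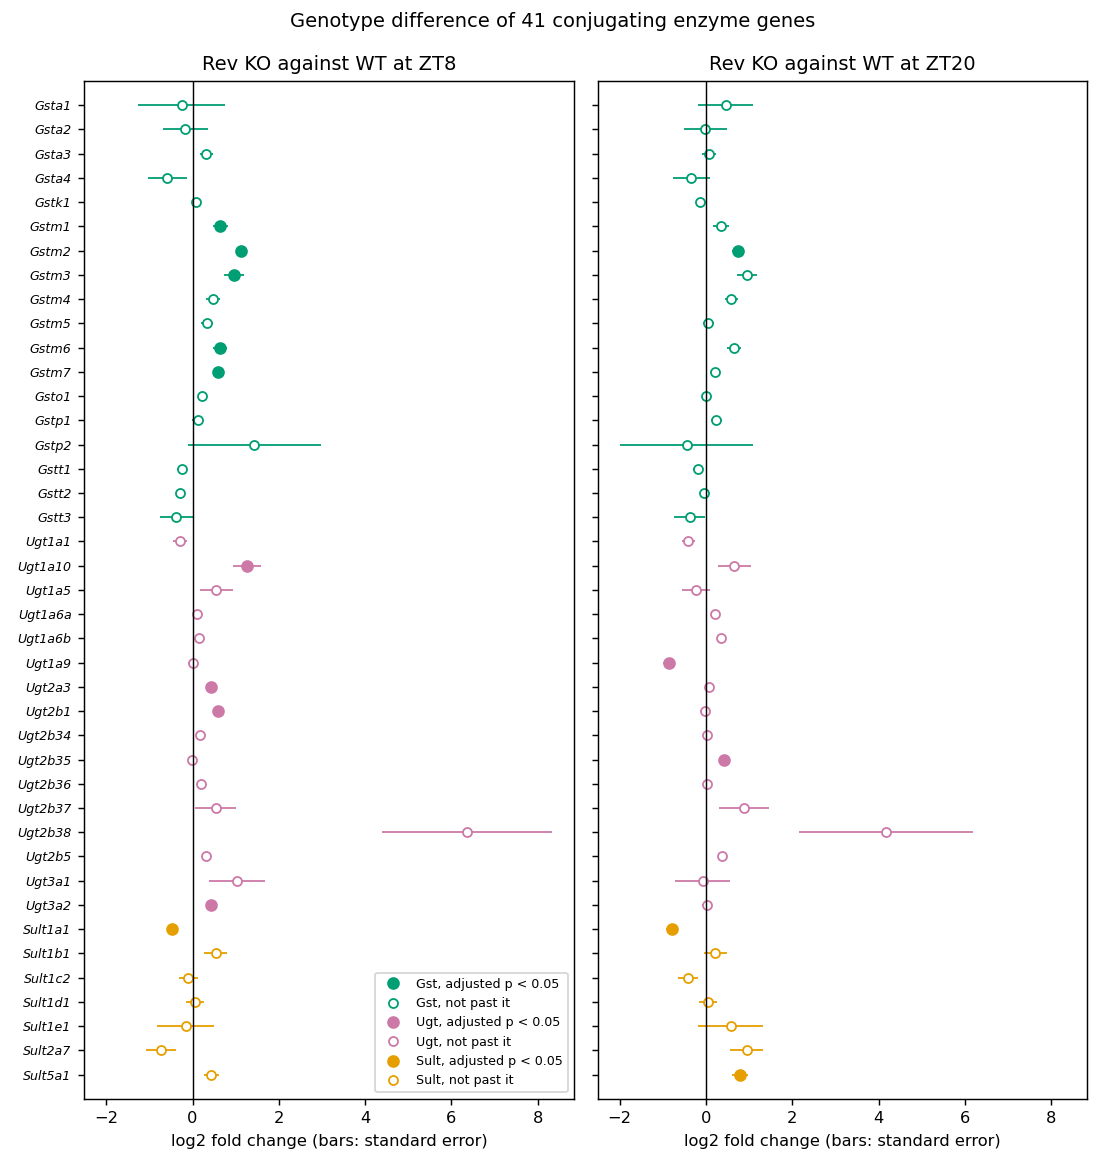
Log2 fold change of Rev-erbα−/− against WT livers for the 41 genes at ZT8 (left) and ZT20 (right), with standard errors as bars and filled points for an adjusted p-value below 0.05. The mu-class genes sit to the right of 0 at both times, Sult1a1 sits to the left of 0 at both times, and Ugt1a9 sits at 0.01 at ZT8 and at −0.87 at ZT20.

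The mu-class Gst genes, whose enzymes conjugate epoxides and lipid peroxidation products, were the group that passed most often. All 7 lie side by side on chromosome 3 (mm10, from 107895821 at Gstm5 to 108044894 at Gstm4), and all 7 had positive log2 fold changes at both times. At ZT8, 5 of the 7 passed the threshold, at ZT20 1 of the 7 did, and the mean of both effects passed for 6 of the 7, with Gstm5 as the exception at 0.20. Without WT ZT8 livers 2 and 3, 1 of the 7 passed at ZT8 (Gstm2), 4 passed at ZT20 (Gstm2, Gstm3, Gstm4 and Gstm6) and 5 passed for the mean, where Gstm1 fell short (0.28, edgeR, adjusted p = 0.0976), and DESeq2 on all 12 livers called 6 of the 7 at ZT8 and 4 at ZT20. Their summed level was 880 ± 269 CPM (SD, n = 3) in WT and 1391 ± 67 CPM in Rev-erbα−/− at ZT8, and 1069 ± 60.7 CPM and 1420 ± 68.2 CPM at ZT20. The interaction test, which compares the genotype effect at ZT8 with that at ZT20, was passed by none of the 7 in edgeR, with 1 at an unadjusted p below 0.05 and none in DESeq2.

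Gstm2 (chr3:107981702-107986453, minus strand) had the smallest adjusted p-values of the class. Its level was 35.1, 27.5 and 24.1 CPM in WT and 53.9, 64.0 and 72 CPM in Rev-erbα−/− livers at ZT8, and 33.7, 32.7 and 28.9 CPM against 57.2, 53.0 and 49.5 CPM at ZT20. Every Rev-erbα−/− liver was above every WT liver at both times. The log2 fold change was 1.13 ± 0.13 (SE) at ZT8 (edgeR, adjusted p = 0.000179) and 0.74 ± 0.13 at ZT20 (adjusted p = 0.00555), and it was 0.85 at ZT8 without the WT livers 2 and 3 (adjusted p = 0.00757).

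Gstm3 followed with a wider spread. It stood at 43.6, 28.4 and 19.9 CPM in WT and 54.8, 58.9 and 64.7 CPM in Rev-erbα−/− at ZT8, and at 38.1, 38.0 and 37.5 CPM against 83.6, 75.7 and 61.6 CPM at ZT20. The genotypes did not overlap at either time. Its log2 fold change was 0.95 ± 0.24 at ZT8 (adjusted p = 0.0373) and 0.96 ± 0.23 at ZT20 (adjusted p = 0.0593) in edgeR, and at ZT8 it was 0.45 without the WT livers 2 and 3 (adjusted p = 0.156). At ZT20 the adjusted p was 5.39e-05 without those libraries, a fit in which the spread of the WT ZT8 group no longer entered.

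Gstm1 was lowest in the WT livers at ZT8 that carried acute phase transcripts. Its level was 884, 631 and 453 CPM in WT and 983, 1024 and 1065 CPM in Rev-erbα−/− at ZT8, and 779, 781 and 899 CPM against 934, 1073 and 1125 CPM at ZT20. The groups did not overlap at either time. The difference on the log2 scale was 0.64 ± 0.18 at ZT8 (adjusted p = 0.0427), 0.21 without the WT livers 2 and 3 (adjusted p = 0.577), and 0.35 ± 0.18 at ZT20 (adjusted p = 0.404), all in edgeR.

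The differences of Gstm6, Gstm7 and Gstm4 had the same sign. Gstm6 differed by 0.63 ± 0.16 at ZT8 (edgeR, adjusted p = 0.0348, and 0.26 with adjusted p = 0.345 without the WT livers 2 and 3) and by 0.65 ± 0.16 at ZT20 (adjusted p = 0.0522). Gstm7 stood at 48.1, 45.6 and 39.8 CPM in WT and 68.6, 64.3 and 69.5 CPM in Rev-erbα−/− at ZT8, groups that did not overlap. Its log2 fold change was 0.60 ± 0.10 at ZT8 (edgeR, adjusted p = 0.00218, and 0.49 with adjusted p = 0.116 without both libraries) and 0.21 ± 0.10 at ZT20 (adjusted p = 0.379). Gstm4 had 0.48 ± 0.16 and 0.59 ± 0.16 at ZT8 and ZT20 (adjusted p = 0.0863 and 0.0674), and its mean effect of 0.53 passed (adjusted p = 0.0148). Without the WT livers 2 and 3 at ZT8, the Gstm4 values were 0.10 at ZT8 (adjusted p = 0.786), 0.59 at ZT20 (adjusted p = 0.000603) and 0.35 for the mean (adjusted p = 0.0161), all in edgeR.

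**Figure D2:**
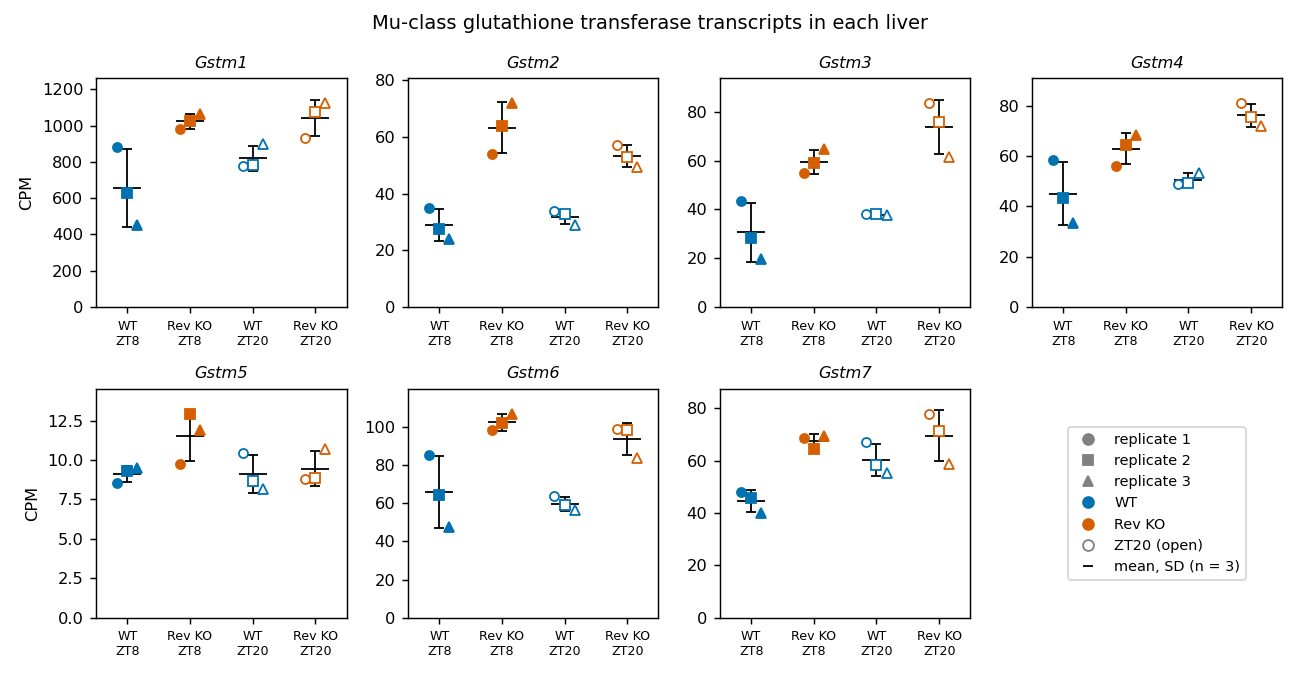
CPM of the 7 mu-class genes in each liver, with filled symbols for ZT8, open symbols for ZT20, blue for WT, orange for Rev-erbα−/−, and lines and bars for the mean and SD of 3 livers. In Gstm1, Gstm2, Gstm3 and Gstm6 all Rev-erbα−/− livers lie above all WT livers of the same time. WT replicates 2 and 3 at ZT8 (square and triangle) are the lowest livers for Gstm1, Gstm2, Gstm3, Gstm4 and Gstm7.

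All Gst genes that passed a genotype test at ZT8, at ZT20 or in the mean of both belonged to the mu class (edgeR). Gsta3, an alpha-class enzyme, stood at 1460, 1024 and 833 CPM in WT and 1434, 1460 and 1242 CPM in Rev-erbα−/− at ZT8, overlapping groups with the 2 acute phase libraries at the bottom. Its log2 fold change was 0.32 ± 0.16 (adjusted p = 0.233) and −0.09 without those libraries. Gstp1, the abundant pi-class enzyme, had overlapping groups at ZT8, with 535 to 578 CPM in WT livers and 478 to 692 CPM in Rev-erbα−/− livers. The 3 theta-class genes Gstt1, Gstt2 and Gstt3 each had all Rev-erbα−/− livers at ZT8 below the lowest WT liver, with log2 fold changes from −0.37 to −0.24 and adjusted p-values from 0.0639 to 0.622, and from −0.36 to −0.16 without the WT livers 2 and 3. Per kilobase of exon sequence not shared with another gene, Gstm1 stood at 601 CPM, Gsta3 at 402 CPM and Gstp1 at 378 CPM over the 12 livers, where the length counts the exons of all annotated transcripts. Gsta1, Gsta2, Gsta4 and Gstk1 overlapped between genotypes at both times.

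Among the Ugt genes, Ugt1a9 had the clearest dependence on time and genotype. Ugt1a9, an enzyme for phenols and fatty acid derivatives, stood at 90.4, 72 and 80.1 CPM in WT and 69.1, 86.3 and 89.6 CPM in Rev-erbα−/− livers at ZT8, which overlapped. At ZT20 it stood at 26.8, 25.9 and 29.8 CPM in WT and 17.1, 14.6 and 13.5 CPM in Rev-erbα−/− livers, which did not. The log2 fold change between genotypes was 0.01 ± 0.11 at ZT8 (edgeR, adjusted p = 0.956) and −0.87 ± 0.12 at ZT20 (adjusted p = 0.000644). The difference between these effects was 0.88 ± 0.16 (interaction, edgeR, adjusted p = 0.00478), and 0.71 with an adjusted p of 0.0611 without WT ZT8 livers 2 and 3.

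Of the 41 genes, 2 passed the interaction test (Ugt1a9 and Ugt2b1), which is 4.88% against 5.88% of all genes (3.05% with a higher and 2.83% with a lower effect at ZT8). Ugt2b1, an abundant androgen and xenobiotic glucuronosyltransferase, stood at 838, 790 and 761 CPM in WT and 1343, 1191 and 1082 CPM in Rev-erbα−/− livers at ZT8. At ZT20 it stood at 1190, 1070 and 1024 CPM in WT and 1282, 1023 and 927 CPM in Rev-erbα−/− livers. The genotypes were apart at ZT8 and overlapped at ZT20. The log2 fold change was 0.60 ± 0.12 at ZT8 (edgeR, adjusted p = 0.00751, and 0.52 with adjusted p = 0.186 without the WT livers 2 and 3) and −0.02 ± 0.12 at ZT20 (adjusted p = 0.963), and their difference was 0.62 ± 0.17 (interaction, adjusted p = 0.0487). The interaction count was 1 without WT ZT8 replicate 2 or 3, Rev-erbα−/− ZT8 replicate 1, WT ZT20 replicate 2 or Rev-erbα−/− ZT20 replicate 2, it was 6 without WT ZT8 replicate 1, and without both WT ZT8 libraries no gene of the 41 passed in edgeR, with 8 at an unadjusted p below 0.05.

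The other Ugt differences were smaller or rested on few reads. Ugt2a3 stood at 270, 245 and 276 CPM in WT and 371, 356 and 334 CPM in Rev-erbα−/− at ZT8, groups that did not overlap (log2 fold change 0.42 ± 0.09, edgeR, adjusted p = 0.00827, and 0.38 with adjusted p = 0.156 without the WT livers 2 and 3). Ugt3a2, which belongs to a family that uses other UDP sugars, differed by 0.42 ± 0.11 at ZT8 (edgeR, adjusted p = 0.0318), and by 0.16 without the WT livers 2 and 3 (adjusted p = 0.676). Ugt1a10 stood at 1.15, 0.847 and 1.07 CPM in WT and 2.08, 2.33 and 2.99 CPM in Rev-erbα−/− at ZT8, from 17 to 61 reads per liver (log2 fold change 1.26 ± 0.32, edgeR, adjusted p = 0.0237, and 1.09 with adjusted p = 0.308 without the WT livers 2 and 3).

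At ZT20, Ugt2b35 was higher in Rev-erbα−/− livers. It stood at 153, 145 and 170 CPM in WT and 226, 199 and 197 CPM in Rev-erbα−/−, and at 204, 208 and 223 CPM against 202, 231 and 195 CPM at ZT8. The groups were apart at ZT20 and overlapped at ZT8. The log2 fold change was 0.41 ± 0.09 at ZT20 (edgeR, adjusted p = 0.0181) and −0.01 ± 0.09 at ZT8 (adjusted p = 0.945), and the interaction had an adjusted p of 0.063. Ugt2b5 and Ugt1a6b passed for the mean of both effects (0.35 with adjusted p = 0.0108 and 0.25 with adjusted p = 0.0422, edgeR), and Ugt1a1, the bilirubin glucuronosyltransferase, had log2 fold changes of −0.29 at ZT8 and −0.41 at ZT20 (adjusted p = 0.311 and 0.242), with −0.44 at ZT8 without WT livers 2 and 3 (adjusted p = 0.506). The mean effect of Ugt1a6b lost its call in 11 of 19 alternatives, the replicate block among them, and that of Ugt2b5 was 0.23 without WT ZT8 livers 2 and 3 (edgeR, adjusted p = 0.103), where its difference at ZT20 passed (0.38, adjusted p = 0.0165).

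Sult1a1, the phenol sulfotransferase, was lower in Rev-erbα−/− livers at both times. It stood at 162, 162 and 166 CPM in WT and 113, 130 and 113 CPM in Rev-erbα−/− at ZT8, and at 252, 264 and 252 CPM against 110, 147 and 184 CPM at ZT20. No Rev-erbα−/− liver reached the lowest WT liver of its time. Rev-erbα−/− against WT gave a log2 fold change of −0.47 ± 0.13 at ZT8 (edgeR, adjusted p = 0.0484, and −0.46 with adjusted p = 0.385 without the WT livers 2 and 3) and −0.80 ± 0.13 at ZT20 (adjusted p = 0.00378), and the interaction had an adjusted p of 0.361.

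Sult5a1, a sulfotransferase of little known substrate range, moved the other way. It stood at 14.1, 10.8 and 15.4 CPM in WT and 26.6, 20.6 and 22.8 CPM in Rev-erbα−/− at ZT20, and at 22.7, 35.2 and 37.0 CPM against 39.3, 47.2 and 41.7 CPM at ZT8. The genotypes did not overlap at either time. Its log2 fold change was 0.79 ± 0.19 at ZT20 (edgeR, adjusted p = 0.0441) and 0.44 ± 0.18 at ZT8 (adjusted p = 0.169), and without WT ZT8 livers 2 and 3 it was 0.91 at ZT8 (adjusted p = 0.0231). Sult1d1 and Sult1b1, sulfotransferases for catecholamines and for thyroid hormones, had log2 fold changes of 0.05 and 0.54 at ZT8 and 0.04 and 0.22 at ZT20, with adjusted p-values from 0.258 to 0.962. Without the WT livers 2 and 3 the ZT8 values were 0.37 for Sult1d1 and 0.0094 for Sult1b1 (edgeR, adjusted p = 0.631 and 0.992). Sult1e1, the estrogen sulfotransferase, stayed at or below 0.712 CPM in every liver.

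**Figure D3:**
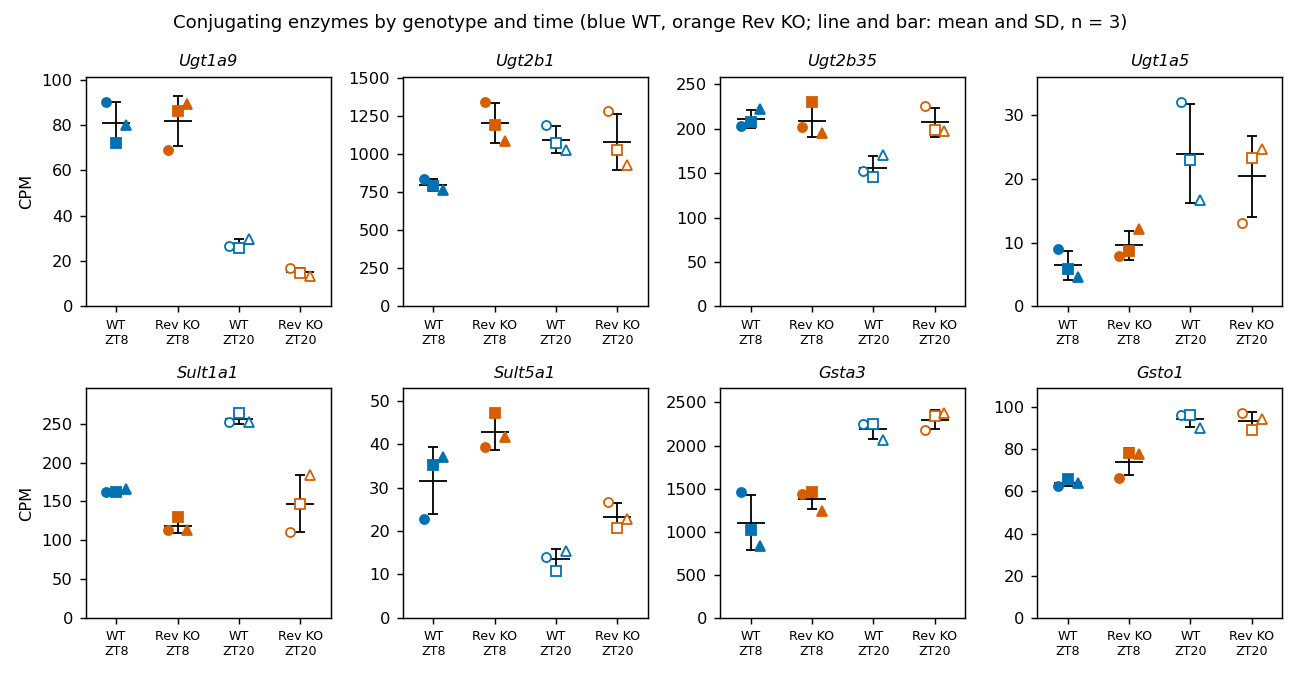
CPM of 8 genes in each liver (circle, square and triangle for replicates 1, 2 and 3, filled for ZT8 and open for ZT20), with the mean and SD of 3 livers. Ugt1a9 separates the genotypes at ZT20, Ugt2b1 at ZT8, Sult1a1 at both times, and Gsta3 and Gsto1 are higher at ZT20 than at ZT8 in both genotypes.

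The second question was how these genes differed between day and night within each genotype. In WT livers, 8 of the 41 genes were higher and 7 were lower at ZT20 than at ZT8, which is 36.6% against 27.7% of all genes (13.8% higher and 13.9% lower), and 17 did not overlap between times, against 42.3% of all genes. In Rev-erbα−/− livers, 6 were higher and 5 lower, which is 26.8% against 17.5% of all genes (8.79% higher and 8.67% lower), and 16 did not overlap between times, against 35% of all genes. The genes that passed in both genotypes were 8 in number and had the same sign, whereas 7 passed in WT alone and 3 in Rev-erbα−/− alone, counts that by themselves do not show a difference between genotypes. Without WT ZT8 livers 2 and 3, 8 genes passed in WT, 6 of them among the 15. Without Rev-erbα−/− ZT8 replicate 2, the count in Rev-erbα−/− livers was 7.

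Genes that passed as higher at night in both genotypes were Gsta3, Gsto1, Gstt1 and Ugt1a1. Gsta3 stood at 2255, 2255 and 2064 CPM in WT and 2178, 2346 and 2377 CPM in Rev-erbα−/− livers at ZT20, above all livers at ZT8. Its log2 fold change from ZT8 to ZT20 was 0.99 ± 0.16 in WT (edgeR, adjusted p = 0.000277, and 0.58 with adjusted p = 0.0132 without WT ZT8 livers 2 and 3) and 0.74 ± 0.16 in Rev-erbα−/− (adjusted p = 0.00469). Gsto1, the omega-class enzyme that also reduces arsenic compounds, rose by 0.55 in WT and 0.33 in Rev-erbα−/−, and Ugt1a1 rose by 0.72 and 0.60. In WT, Ugt1a1 and Gstt1 did not pass without ZT8 livers 2 and 3 (0.57 and 0.41, edgeR, adjusted p = 0.203 and 0.175), and Gstt1 lost its call in 13 of 20 alternatives in WT and 9 of 20 in Rev-erbα−/−, the replicate block among both.

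Genes lower at night in both genotypes were Ugt1a9, Ugt2b36, Sult5a1 and Sult1c2. Ugt1a9 had the largest fall among the genes that passed in both, with a log2 fold change of −1.56 ± 0.12 in WT (edgeR, adjusted p = 2.39e-07) and −2.44 ± 0.12 in Rev-erbα−/− (adjusted p = 1.17e-08). Its interaction value, given above, is also the test of the difference between these falls. Sult5a1 changed by −1.23 in WT and −0.87 in Rev-erbα−/−, Sult1c2 by −0.66 and −0.98, and Ugt2b36 by −0.26 and −0.42. Without WT ZT8 livers 2 and 3 the WT changes were −0.76 for Sult5a1, −0.91 for Sult1c2, −0.40 for Ugt2b36 and −1.72 for Ugt1a9, and all 4 passed (edgeR, adjusted p from 4.53e-06 to 0.0411).

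Among the genes that passed in WT alone, Ugt1a5 rose by 1.87 ± 0.36 on the log2 scale (edgeR, adjusted p = 0.00443), from 8.99, 5.83 and 4.58 CPM at ZT8 to 32.0, 22.9 and 16.7 CPM at ZT20. In Rev-erbα−/− livers it stood at 7.95, 8.61 and 12.2 CPM at ZT8 and 13.1, 23.3 and 24.6 CPM at ZT20, also without overlap (1.08 ± 0.35, edgeR, adjusted p = 0.0654). The interaction of Ugt1a5 had an adjusted p of 0.439. Sult1a1, Ugt2b1, Gstm7, Ugt2b35, Sult2a7 and Ugt2b37 were the others, with log2 fold changes of 0.65, 0.46, 0.43, −0.44, −1.47 and −1.85 in WT, and of these Ugt2b1 alone passed the interaction test. None of these WT changes passed without WT ZT8 livers 2 and 3 (edgeR), where Ugt1a5 was 1.40 (adjusted p = 0.145), Sult1a1 0.65 (0.0886), Ugt2b1 0.38 (0.201), Gstm7 0.32 (0.188), Ugt2b35 −0.39 (0.0589) and Sult2a7 −0.83 (0.303). The difference of Ugt2b37 in WT rested on WT ZT8 livers 2 and 3, which stood at 5.33 and 9.00 CPM against 1.55 CPM in liver 1, and was −0.11 without them (adjusted p = 0.9). Genes that passed in Rev-erbα−/− livers alone were Ugt1a10, Ugt1a6a and Ugt1a6b, with −1.48, 0.34 and 0.40.

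**Figure D4:**
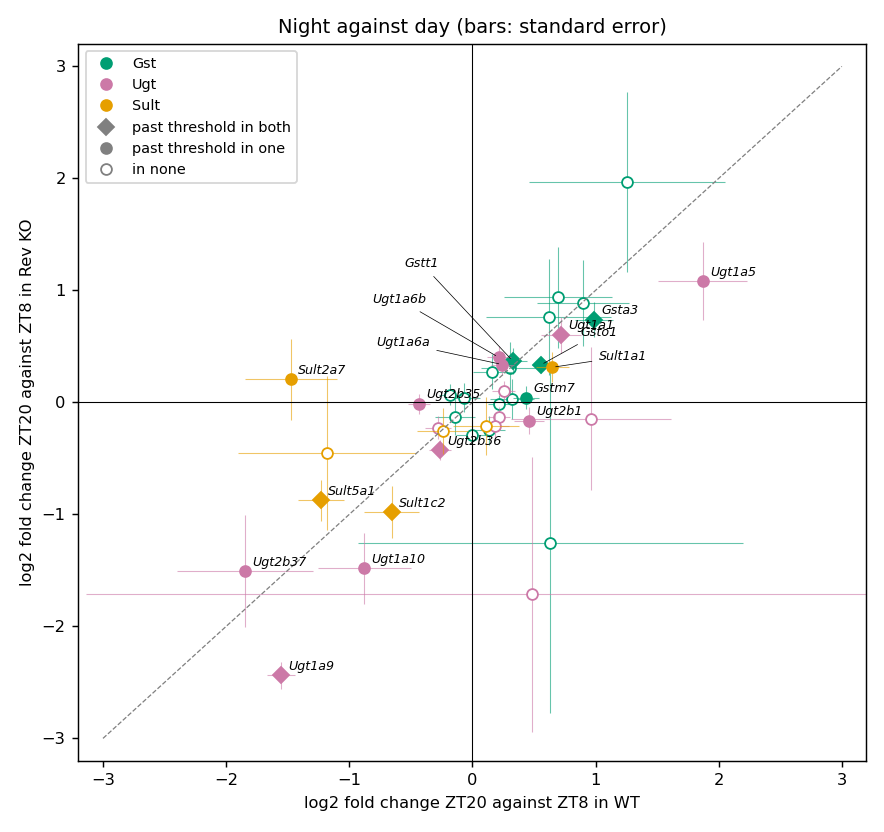
Log2 fold change of ZT20 against ZT8 in WT livers (horizontal axis) and in Rev-erbα−/− livers (vertical axis) for the 41 genes, with standard errors as bars, diamonds for genes past the threshold in both genotypes and a dashed line of equal change. Both axes share no samples, and Ugt1a9 lies at −1.56 and −2.44, below the line, whereas Gsta3 lies at 0.99 and 0.74.

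The promoters of these genes were searched because REV-ERBα binds the half-site AGGTCA, and because the night-low Ugt2b36 and its neighbours share sequence there. RefSeq promoters (GRCm38.p6, the 250 bases before the annotated start) were found for 36 of the 41 genes and gave 43 windows. AGGTCA, on either strand, was in 9 of 43 windows (20.9%) and in 14% of all 32851 windows. It was in 6 of 14 Ugt genes, 2 of 6 Sult genes and 1 of 16 Gst genes, and not in the 7 mu-class genes. In 4 Ugt2b genes on the minus strand of chromosome 5 it lay between 22 and 39 bases before the start, as the last 80 bases before the start show, with AGGTCA in capitals (Ugt2b5 at chr5:87140341-87140420, Ugt2b36 at chr5:87092556-87092635, Ugt2b37 at chr5:87254789-87254868 and Ugt2b38 at chr5:87424204-87424283).
Ugt2b5: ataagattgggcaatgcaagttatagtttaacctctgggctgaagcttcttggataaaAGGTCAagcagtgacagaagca
Ugt2b36: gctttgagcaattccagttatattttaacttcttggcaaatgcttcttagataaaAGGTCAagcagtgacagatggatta
Ugt2b37: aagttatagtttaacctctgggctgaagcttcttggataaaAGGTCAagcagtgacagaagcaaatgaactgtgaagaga
Ugt2b38: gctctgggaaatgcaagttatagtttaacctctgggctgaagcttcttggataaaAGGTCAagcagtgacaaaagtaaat
Among the genes with this stretch, Ugt2b36 had log2 fold changes of 0.19 and 0.03 between genotypes at ZT8 and ZT20 (edgeR, adjusted p = 0.216 and 0.931), Ugt2b5 had 0.32 and 0.37 (adjusted p = 0.0704 and 0.0663), Ugt2b37 had 0.53 and 0.88 (adjusted p = 0.556 and 0.563), and Ugt2b38 had 6.36 and 4.16 (adjusted p = 0.091 and 0.403). Without WT ZT8 livers 2 and 3 the ZT8 values were 0.05 for Ugt2b36, 0.09 for Ugt2b5, 2.27 for Ugt2b37 and 6.16 for Ugt2b38. The Ugt2b37 value then rested on 1 WT liver of 39 reads (1.55 CPM). The 2 WT livers left out stood at 5.33 and 9.00 CPM, and the Rev-erbα−/− livers at 6.555 to 8.276 CPM.

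Ugt1a9, Ugt2b35 and Sult5a1 passed between genotypes at ZT20 and not at ZT8, and of these Ugt1a9 alone passed the interaction test. Ugt1a9, lower in Rev-erbα−/− livers at ZT20, and Ugt2b35, higher in them, had AGGTCA in the promoter window, and Sult5a1 did not. Gstm2 and Sult1a1, which passed at both times, did not have it either. The promoter of Ugt1a9 is given with its AGGTCA and its HNF1 half-site GTTAAT (reverse strand) in capitals (chr1:88070529-88070778, plus strand).
Ugt1a9: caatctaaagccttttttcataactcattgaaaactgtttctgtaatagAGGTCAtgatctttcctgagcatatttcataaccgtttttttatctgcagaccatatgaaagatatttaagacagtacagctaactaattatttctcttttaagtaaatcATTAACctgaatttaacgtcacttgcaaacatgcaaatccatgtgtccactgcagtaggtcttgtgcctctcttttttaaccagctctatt
The half-site GTTAAT, bound by a hepatocyte factor, was in 9 of 43 windows (20.9%) and in 6.43% of all windows, and in 4 of 5 Ugt1a genes with a promoter. The D-box TTATGTAA, the site of the circadian PAR bZIP factors, was in 1 window, that of Ugt2b1 at 59 bases before the start, against 0.819% of all windows. The core of the antioxidant response element (TGACNNNGC) was in 3 of 43 windows (6.98%), from Gsta3, Gstm5 and Gstm7, against 10.2% of all windows. The xenobiotic response core GCGTG was in 18.6% of the windows against 28.2% of all, TTATGCAA was in that of Gstt1, and CACGTG was in none against 6.02% of all. Motifs can overlap each other, and a match describes letters and not binding.

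Few of the genes that supply the cosubstrates passed between genotypes. Of 9 glutathione supply and other glutathione transferase genes tested, none passed at ZT8 in edgeR (0 at an unadjusted p below 0.05 and 0 in DESeq2), and at ZT20 none passed (1 at an unadjusted p below 0.05 and 0 in DESeq2). Of 4 genes for UDP-glucuronic acid supply and deconjugation, 1 was higher at ZT8 (25% against 8.45% of all genes tested). This was Ugdh, which makes UDP-glucuronic acid. It stood at 186, 165 and 141 CPM in WT and 226, 213 and 189 CPM in Rev-erbα−/− livers (log2 fold change 0.35 ± 0.10, edgeR, adjusted p = 0.0439), again with the acute phase livers lowest, and the groups did not overlap. Without those livers Ugdh had 0.16 at ZT8 (adjusted p = 0.629) and passed at ZT20 (0.34, adjusted p = 0.0384). Of 6 genes for the sulfate donor, none passed at ZT8 or ZT20 in edgeR (0 and 1 at an unadjusted p below 0.05 and 0 in DESeq2 at both).

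Of 15 regulators known to act on conjugating enzymes, Hnf4a was higher at ZT8 (0.35, edgeR, adjusted p = 0.0366), which is 6.67% against 8.45% of all genes tested. Ahr was higher and Stat5b lower at ZT20 (0.37 and −0.32, edgeR, adjusted p = 0.0382 and 0.0249), which is 13.3% against 3.63%. Ahr, Arnt, Hnf4a and Stat5b passed the interaction test, with values of −0.56, 0.37, 0.50 and 0.51, which is 26.7% against 5.88%. Without WT ZT8 livers 2 and 3, Hnf4a did not pass at ZT8 (0.40, adjusted p = 0.182) or for the interaction (0.55, adjusted p = 0.101). Of 11 transcripts that report the activity of these regulators, Txnrd1 was higher at ZT20 (0.27, edgeR, adjusted p = 0.0398), which is 9.09% against 3.63% of all genes. None of the 11 passed at ZT8 in edgeR (2 at an unadjusted p below 0.05 and 1 in DESeq2).

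Among the cell type lists, 1 of 5 bile duct markers was higher at ZT8 (Sox9, log2 fold change 1.20, edgeR, adjusted p = 0.00126, and 0.90 with adjusted p = 0.0982 without WT ZT8 livers 2 and 3), and the summed list ran from 37.9 to 94.7 CPM in WT and from 53.7 to 69.8 CPM in Rev-erbα−/−. Of the 5 pancreas markers 1 was tested and was higher at ZT8 (Cela1, 0.99, adjusted p = 0.00828, and 1.00 with adjusted p = 0.186 without those livers), and the other 4, acinar genes that include Prss2 and Amy2a5, stood at or near 0 in all livers. Hepatocyte markers were abundant in all groups, with summed levels from 48870 to 103200 CPM, and none of 5 passed by genotype at ZT8 in edgeR (4 at an unadjusted p below 0.05 and 4 in DESeq2). Kupffer cell, stellate cell, sinusoidal endothelium and lymphocyte markers did not pass at ZT8 in edgeR, with 3, 1, 0 and 0 genes at an unadjusted p below 0.05 and 1, 1, 0 and 0 in DESeq2. For the interaction, 1 of 4 Kupffer cell and 1 of 5 stellate cell markers passed with negative values, against 5.88% of all genes. None of 6 pericentral and 5 periportal hepatocyte markers passed at ZT8 or ZT20 in edgeR. For the mean of both effects, 1 of 6 pericentral and 1 of 5 stellate cell markers were lower. Bile duct and pancreas markers had 1 each higher. Of all genes, 3.33% were higher and 3.02% lower in this mean. Of 8 genes predominant in male liver, 3 were higher and 1 lower at ZT8 (50% in all) and 1 was higher at ZT20 (12.5%). Of the 3 tested genes predominant in female liver, 1 was lower at ZT8 (Acot3) and 1 at ZT20 (Cyp2a4), 33.3% each. For the bile duct list the share at ZT8 was 20%. Over all genes tested, 8.45% passed at ZT8 (4.4% higher and 4.04% lower) and 3.63% at ZT20 (2.09% higher and 1.54% lower). Without WT ZT8 livers 2 and 3, the male-predominant genes that passed at ZT8 were Elovl3, which was higher, and Cyp4a12b, which was lower. The part of these differences in the results on conjugating enzymes was not tested.

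Gstp2, Ugt2b38 and Ugt3a1 differed widely between single livers of a group, and they were chosen for mention after their values were seen, as were Gstm5, Gstt2, Gstt3 and Sult1e1. Ugt2b34, an abundant hepatic Ugt, likewise passed no test and had 555 to 730 CPM in all livers. Gstp2 stood at 17.6, 1.45 and 2.03 CPM in WT and 28.4, 1.44 and 28.8 CPM in Rev-erbα−/− livers at ZT8. At ZT20 it stood at 0.605, 16.9 and 16.2 CPM in WT and 1.01, 22.1 and 1.29 CPM in Rev-erbα−/− livers. Every group held livers of both levels, from 13 to 588 reads, and the log2 fold changes of 1.44 ± 1.55 at ZT8 and −0.45 ± 1.54 at ZT20 did not pass (edgeR, adjusted p = 0.636 and 0.941), and the ZT8 value was 0.16 without WT livers 2 and 3. Ugt2b38 had 2 to 6 reads in each WT liver and in Rev-erbα−/− replicate 1 of both times, and 135 and 565 reads (7.50 and 27.7 CPM) in Rev-erbα−/− replicates 2 and 3 at ZT8 and 92 and 161 reads (3.58 and 7.16 CPM) in those at ZT20. Its log2 fold changes of 6.36 ± 1.97 and 4.16 ± 2.02 did not pass (edgeR, adjusted p = 0.091 and 0.403), and with so few reads in WT these fitted values depend on the prior count. Ugt3a1, a glycosyltransferase that uses UDP-N-acetylglucosamine, stood at 31.9, 12.6 and 5.39 CPM in WT and 31.7, 39.6 and 32.3 CPM in Rev-erbα−/− livers at ZT8, which overlapped, and at 52.8, 34.7 and 11.3 CPM against 33.8, 27.0 and 33.0 CPM at ZT20. Its log2 fold change at ZT8 was 1.03 ± 0.66 (edgeR, adjusted p = 0.394), and 0.11 without WT livers 2 and 3 (adjusted p = 0.971).

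**Figure D5:**
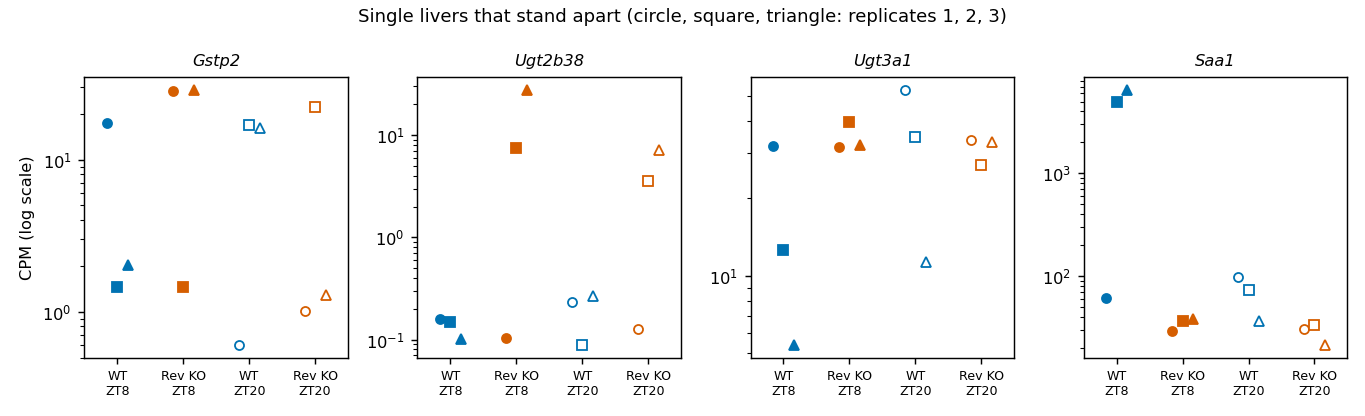
CPM on a log axis of Gstp2, Ugt2b38, Ugt3a1 and the acute phase gene Saa1 in each liver (circle, square and triangle for replicates 1, 2 and 3, blue for WT, orange for Rev-erbα−/−, filled for ZT8, open for ZT20). Gstp2 lies at or below 2.03 CPM or above 16 CPM in each liver, Ugt2b38 is above 3 CPM in 4 Rev-erbα−/− livers, and the 2 WT livers high in Saa1 at ZT8 are the lowest of their group in Ugt3a1.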

How the data were processed

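The authors prepared poly(A) libraries from frozen livers, aligned 75-base reads with TopHat to the mm10 build, and then used HTSeq-count in its union mode on reads with a single alignment (quality of at least 10, strand ignored), summed by symbol. The annotation release was not given in the sources used here. They deposited raw counts for each of the 12 libraries, without normalization or pooling, and ran DESeq2 1.6.3. Reads in exons of more than one gene (3.53% to 4.14% of gene reads) were left uncounted as ambiguous.

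From these counts, filterByExpr kept 14488 genes, TMM scaled the libraries, and 4 group means were fitted over all 12 samples in edgeR 4.0.16 (R 4.3.3, robust glmQLFit and glmQLFTest). Adjusted p-values are Benjamini-Hochberg values over all genes of a contrast, and 0.05 is the threshold. Values in the text are CPM, and standard errors belong to log2 fold changes. Each standard error was taken as the absolute log2 fold change divided by the square root of the quasi-likelihood F statistic. An exact permutation test of 3 against 3 livers cannot go below p = 0.1. Replicates are separate mice, and no pair within a group was a duplicate (lowest chi-square 7.53 per degree of freedom). Scripts were tested on simulated counts with 200 genes changed 1.5-fold in Rev-erbα−/− livers at ZT8. There edgeR recovered 86 of the 200 (43%) and called 6 unchanged genes, so a gene that did not pass may still differ. The genes and lists were chosen with earlier results of these data known. Genes named with values are those past the threshold in any contrast and the 3 of each family with the highest mean CPM, and the other genes are named once. Gstm5, Gstp2, Gstt2, Gstt3, Sult1e1, Ugt2b34, Ugt2b38 and Ugt3a1 are given with values outside this rule. Promoters are from RefSeq and positions and coding sequence from GENCODE M21. Alternatives were DESeq2 1.42.0, other scaling, filters, spread estimates and samples, and a replicate block.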

Additional observations from a re-analysis of the deposited data

Results flagged for a closer look

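Ugt1a9 was picked out because its genotype effect differed between the times of day. The effect at ZT8 minus that at ZT20 was 0.881 on the log2 scale (SE 0.163, edgeR interaction test, adjusted p = 0.00478), with the genotypes overlapping at ZT8 and all 3 Rev-erbα−/− livers below all 3 WT livers at ZT20. Over 19 alternatives it ranged from 0.71 to 0.98, with adjusted p-values from 0.000108 to 0.0611.

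Ugt2b1 was picked out for the same reason, with a difference of 0.6211 (SE 0.174, adjusted p = 0.0487). Here all 3 Rev-erbα−/− livers were above all 3 WT livers at ZT8 and the genotypes overlapped at ZT20. Over 19 alternatives the value ranged from 0.53 to 0.77, with adjusted p-values from 0.00757 to 0.243, and it did not pass in 12 of them. The cause of either difference was not tested.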

How the results depend on the processing

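No called gene changed sign under the alternatives run. Of 1101 values of genes past the threshold, 899 stayed past it and 202 did not. Of 373 values with an adjusted p from 0.05 to 0.1, 65 passed. Gstm2 at both times and Ugt1a9 at ZT20 passed under all 20 alternatives run for each, whereas Gstm1 at ZT8 lost its call in 14 of 20, Sult1a1 at ZT8 in 13 and Sult5a1 at ZT20 in 12.

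The number of the 41 genes past the threshold at ZT8 was 10, 6 in a fit on only the 6 samples compared, 3 without WT ZT8 replicates 2 and 3, and 3 to 13 when 1 library was left out. At ZT20 it was 5, 9 with DESeq2, 8 without robust estimates, 8 on only the 6 samples compared, and 3 to 10 with 1 library left out. For the interaction it was 2, 4 with DESeq2, 4 with no filter, 1 with at least 10 reads in every sample, 1 without robust estimates, 0 without WT ZT8 replicates 2 and 3 (edgeR, 8 at an unadjusted p below 0.05), and 1 to 6 with 1 library left out. The count for night against day was 15 in WT, and 10 to 18 with 1 library left out. In Rev-erbα−/− it was 11, and 7 to 15 with 1 library left out. The mean genotype effect passed for 13 genes, and for 9 to 18 with 1 library left out. The cause of these shifts was not tested, beyond the smaller number of samples in the fits that leave some out.

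Replicate numbers did not pair the mice, since none of 18 same-number pairs had a correlation of deviations above 0.1 (mean −0.014) and 1 of 12 samples correlated best with its own number. With the replicate block, the counts were 11 at ZT8, 5 at ZT20, 2 for the interaction, 13 and 10 for night against day in WT and Rev-erbα−/−, and 13 for the mean effect. With 3 livers per group, genes near the threshold moved across it with single libraries, and genes below about 0.167 CPM could not be measured.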
